A study of Mus musculus with 16 samples.

Results

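The genes described here are 8 members of the fatty acid oxidation and ketogenesis programme that the nuclear receptor PPAR-alpha controls in liver: Ppara, Cpt1a, Ehhadh, Hadha, Acadm, Pdk4, Fgf21 and Acot1. They were found by symbol among the gene probes of 16 single-colour microarrays of mouse liver, and they are 8 of the 24357 genes tested. Where a gene had several probes, the probe with the highest mean level stood for it. All 8 members were well above background on all 16 arrays. Liver was taken from male BALB/c mice, 6 to 8 weeks old before treatment and kept on regular chow, that were wild type (WT) or lacked the gene for lipocalin 2, a secreted protein of innate immunity (Lcn2-/-). The Lcn2-/- line was made on a 129/Ola X C57BL/6 background and backcrossed to BALB/c, and how much flanking DNA of the first background remains was not analysed here. The gene is deleted in the whole animal and not in 1 cell type. Mice received carbon tetrachloride (CCl4), a toxin that is activated in hepatocytes and causes fibrosis, in corn oil by intraperitoneal injection at 0.5 ml per kg, 2 times a week for 4 weeks, and were killed 48 h after the last dose. Controls received corn oil for 4 weeks. There were 9 WT samples (4 control, 5 CCl4) and 7 Lcn2-/- samples (3 control, 4 CCl4), labelled only as replicates, so p-values measure the spread between these samples. The comparisons ask how the programme responded to chronic injury in each genotype and how the genotypes differed with and without it.

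PPAR-alpha is a receptor for fatty acids that pairs with a retinoid X receptor and switches on genes for burning fat, above all during fasting. Long-chain fatty acids enter mitochondria through the carnitine shuttle, are shortened by beta-oxidation, and yield acetyl-CoA that the liver turns into ketone bodies for other organs. Peroxisomes shorten very long chains and dicarboxylic acids, pyruvate dehydrogenase kinases keep carbohydrate out of the same pathway, and the hormone FGF21 carries the fasting signal out of the liver.

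Values are log2 normalized intensities, on which a difference of 1 is a doubling, and each gene is compared only with itself. Between 51.6% and 60.9% of gene spots were well above background on an array. Lcn2 ranged from 13.79 to 17.57 on the WT arrays and from 10.47 to 12.25 on the Lcn2-/- arrays, with no overlap. Arrays lay on 2 slides, which were also the 2 scans. All 7 controls and WT CCl4 replicate 1 were on slide 1, and the other 8 CCl4 arrays were on slide 2, so the CCl4 response of Lcn2-/- mice cannot be told apart from the slide, and that of WT mice can be read within a slide from 1 array only. On each slide the genotypes lay in different rows of arrays, apart from WT CCl4 replicate 1, so genotype and row cannot be told apart. WT CCl4 replicate 5 and Lcn2-/- CCl4 replicate 4 stood apart from the rest. The median difference between a downstream and an upstream probe of the same transcript, over 1233 transcripts with probes at least 1000 bases apart, was 1.78 and 1.82 on them and 1.42 to 1.61 on the other 14 arrays. These 2 arrays shared a column of slide 2, and their deviations from their group means correlated at r = 0.64 over the 24357 genes. In whole liver, fewer cells of a type and less RNA per cell cannot be told apart.

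Ehhadh, a peroxisomal oxidation enzyme, and Pdk4, the kinase that closes pyruvate dehydrogenase, rose with CCl4 in both genotypes, by 2.15-fold and 1.99-fold in WT and by 2.25-fold and 3.14-fold in Lcn2-/- mice. With slide as a fixed block all 4 calls are lost, with adjusted p from 0.0601 to 0.201. The log2 differences were then 1.07 and 1.29 in WT and 1.13 and 2.02 in Lcn2-/- mice. Without the block they were 1.10 and 0.99, and 1.17 and 1.65. The blocked WT values are those of WT CCl4 replicate 1 against the WT controls on slide 1. The blocked Lcn2-/- values rest on a slide difference taken from the WT CCl4 arrays alone. Neither set is separate support for the size of a response. The other 6 members did not pass the test in either response. Between the genotypes Fgf21, the fasting hormone, was 11.2-fold lower in Lcn2-/- than in WT controls and was the only member to pass. That call is lost with the replicate number as a block (adjusted p = 0.0634). The block covered all 16 arrays, although the number was not taken to pair the treated ones. The receptor Ppara itself, the mitochondrial enzymes Cpt1a, Hadha and Acadm, and the thioesterase Acot1 passed in no comparison.

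By limma with Benjamini-Hochberg adjustment over all genes at a threshold of 0.05, 2 of 8 members passed in the WT response, both higher, where 16.8% of all genes passed and 8.01% passed as higher. In the Lcn2-/- response 2 of 8 passed, both higher, where 12.2% of all genes passed and 6.57% passed as higher. In Lcn2-/- against WT controls 1 of 8 passed, where 0.530% of all genes passed and 0.291% passed as lower. Under CCl4 no member passed between the genotypes, where 0.636% of all genes passed, and 2 of 8 had an unadjusted p under 0.05, as did 13.7% of all genes. The median difference over the 8 members was 0.02 in the WT response, 0.53 in the Lcn2-/- response, -0.05 between the genotypes under CCl4 and -0.27 between the controls, against -0.03, -0.02, 0.00 and -0.01 over all genes.

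**Figure D1:**
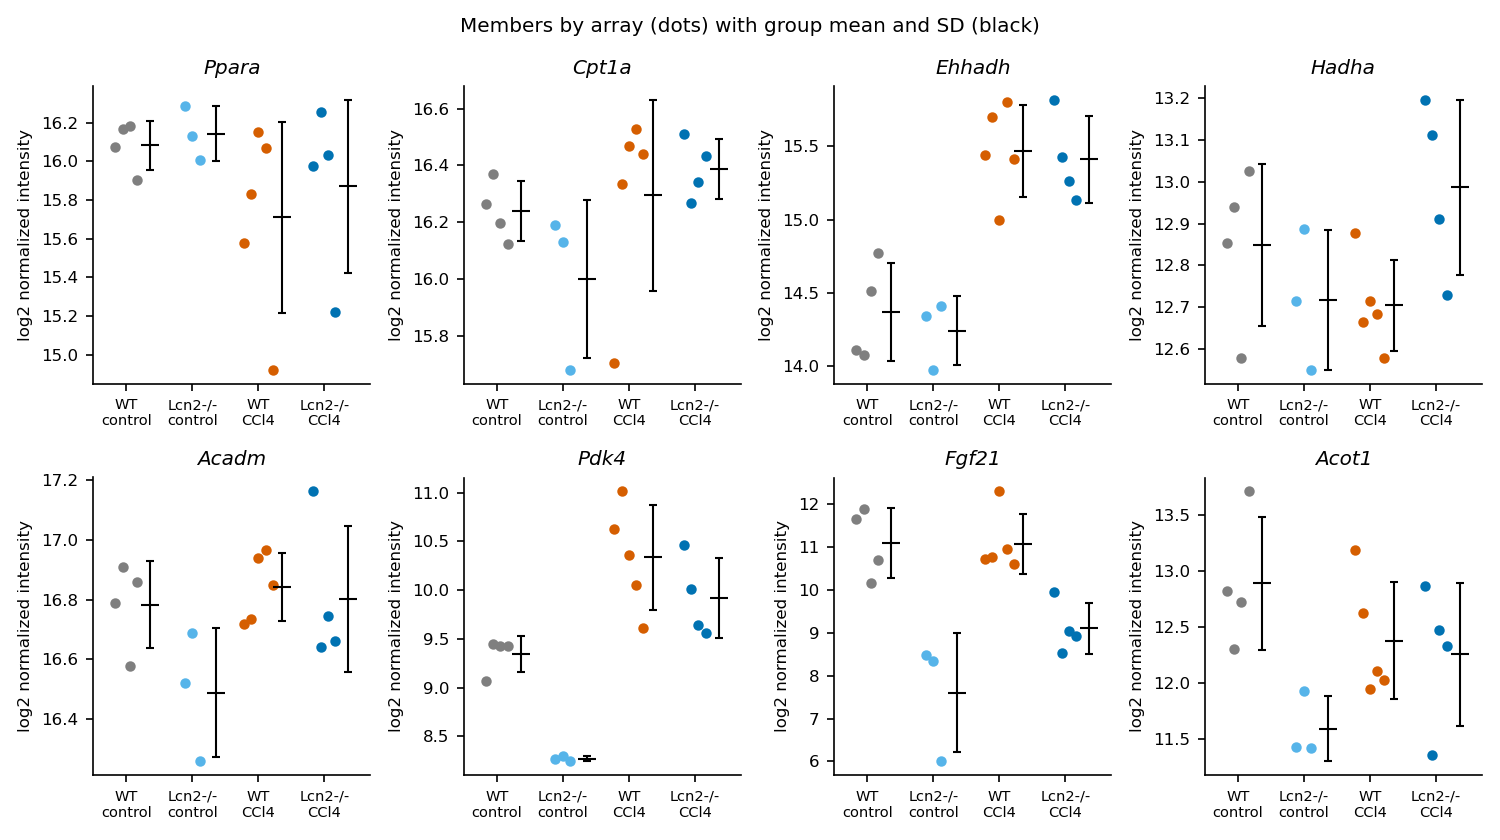
Log2 normalized intensity of each member on each of the 16 arrays (dots), by group, with the group mean and SD in black. The vertical axes differ and do not start at 0. Ehhadh and Pdk4 are higher in both CCl4 groups than in their controls, and every Lcn2-/- array lies below every WT array for Fgf21 within each treatment.

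Ppara encodes the receptor. Its level on the chosen probe was 16.08, 16.17, 16.18 and 15.91 in WT controls and 16.29, 16.13 and 16.01 in Lcn2-/- controls. With CCl4 it was 15.58, 15.83, 16.15, 16.07 and 14.92 in WT and 15.98, 16.25, 16.03 and 15.22 in Lcn2-/- mice. The groups overlapped, and both lowest values were on WT CCl4 replicate 5 and Lcn2-/- CCl4 replicate 4, the arrays that stood apart. The response was -0.37 in WT (95% interval -0.89 to 0.14, adjusted p = 0.318) and -0.27 in Lcn2-/- mice (-0.86 to 0.31, adjusted p = 0.563), and without those 2 arrays it was -0.18 and -0.06. With arrays scaled to their 75th percentile, which moved the median of all genes to -0.16, the WT value was -0.58 and passed (adjusted p = 0.0353).

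Ppara had 3 probes, and they did not give the same picture. The chosen probe lay at base 2273 of the transcript (chr15:85632110-85632169, plus strand, mm9), the others at bases 2697 (chr15:85632534-85632593) and 7356 (chr15:85637193-85637252). In WT mice the CCl4 response was -0.78 on the probe at base 2697 (adjusted p = 0.103) and 0.03 on the one at base 7356 (adjusted p = 0.906), when each probe was fitted on its own. In Lcn2-/- mice it was -0.77 and 0.16, with adjusted p = 0.18 and 0.51. The difference between the probes at bases 7356 and 2273 was 0.58 on WT CCl4 replicate 5 and 0.41 on Lcn2-/- CCl4 replicate 4, and it was -0.99 to -0.24 on the other 14 arrays. No probe of Ppara passed in either response. Whether a probe lies in a coding exon or an untranslated region was not analysed here.

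**Figure D2:**
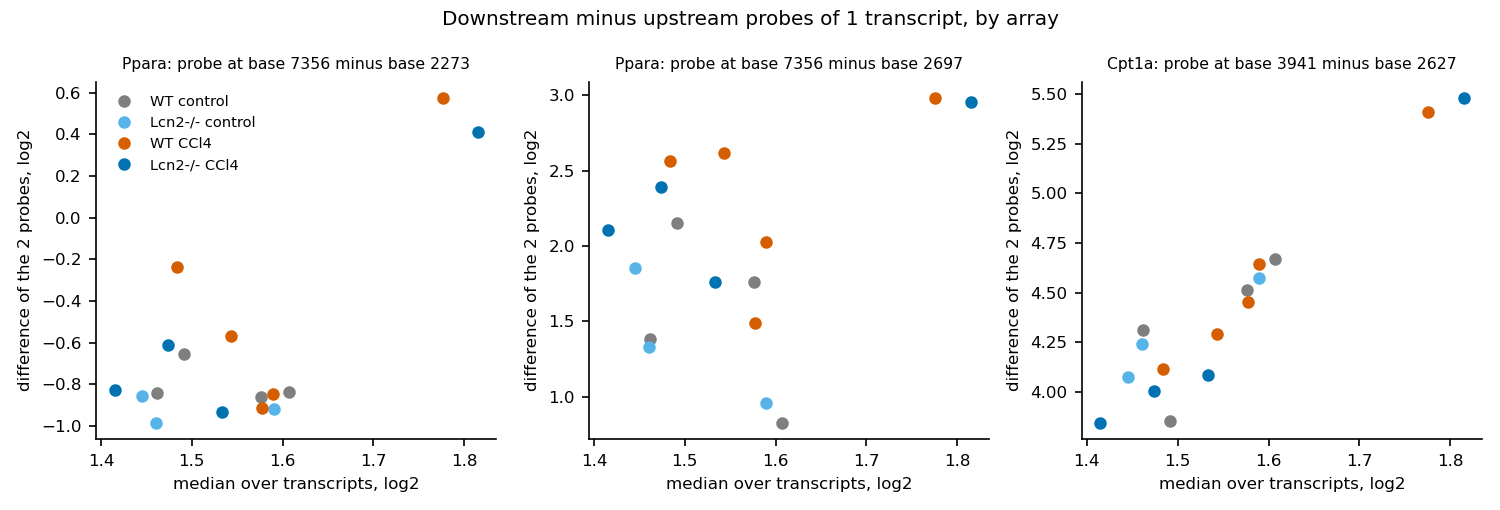
Each dot is an array. The horizontal axis is the median downstream minus upstream probe difference over 1233 transcripts (log2), and the vertical axis is the same difference for 2 probes of Ppara or Cpt1a (log2). WT CCl4 replicate 5 and Lcn2-/- CCl4 replicate 4 lie at the top right of each panel, at 1.78 and 1.82 on the horizontal axis.

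Cpt1a is the carnitine palmitoyltransferase of the outer mitochondrial membrane, the gate that malonyl-CoA closes when fat is being made. It read 16.26, 16.37, 16.20 and 16.12 in WT controls and 16.19, 16.13 and 15.68 in Lcn2-/- controls (chosen probe at base 3941, chr19:3385374-3385433, plus strand, mm9). With CCl4 it was 15.71, 16.33, 16.47, 16.53 and 16.44 in WT and 16.51, 16.27, 16.34 and 16.43 in Lcn2-/- mice. The Lcn2-/- groups did not overlap, and in WT mice replicate 1, the only treated array on the controls' slide, lay below every control while the other 4 overlapped them or lay above. The response was 0.06 in WT (-0.29 to 0.40, adjusted p = 0.855) and 0.39 in Lcn2-/- mice (-0.00 to 0.78, adjusted p = 0.189). A second Cpt1a probe at base 2627 gave -0.19 and 0.33, with adjusted p = 0.73 and 0.592 when fitted on its own.

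Acadm and Hadha changed little. Acadm is the acyl-CoA dehydrogenase that starts a turn of beta-oxidation for medium chains. Hadha is the alpha subunit of the trifunctional protein that completes the turn for long chains. Acadm (chr3:153585670-153585729, minus strand) ranged from 16.58 to 16.91 in WT controls, 16.26 to 16.69 in Lcn2-/- controls, 16.72 to 16.97 in CCl4-treated WT and 16.64 to 17.16 in CCl4-treated Lcn2-/- samples. Hadha (chr5:30446215-30446274, minus strand) ranged from 12.58 to 13.03, 12.55 to 12.89, 12.58 to 12.88 and 12.73 to 13.20 in the same order. In each of the 4 comparisons the groups overlapped for both genes. The response of Acadm was 0.06 in WT (-0.22 to 0.33) and 0.31 in Lcn2-/- mice (0.00 to 0.63, adjusted p = 0.184). The response of Hadha was -0.15 in WT (-0.41 to 0.12) and 0.27 in Lcn2-/- mice (-0.03 to 0.57, adjusted p = 0.237). Under CCl4 Hadha was 0.28 higher in Lcn2-/- than in WT mice, at an unadjusted p of 0.0383 and an adjusted p = 0.339.

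Ehhadh encodes the L-bifunctional enzyme of peroxisomes, which hydrates and dehydrogenates shortened and dicarboxylic acyl-CoAs. It and Pdk4 were the members that rose together, so the 250 bases before the start of each gene are shown with those of Fgf21, in lower case, 5′ to 3′ on the gene's strand, from RefSeq on GRCm38.p6 (chr16:21787835-21788084, chr6:5496279-5496528 and chr7:45615491-45615740, all minus strand). Capitals mark the bases TTGCATCA, the only stretch among these 3 sequences that matched a searched motif.
Ehhadh: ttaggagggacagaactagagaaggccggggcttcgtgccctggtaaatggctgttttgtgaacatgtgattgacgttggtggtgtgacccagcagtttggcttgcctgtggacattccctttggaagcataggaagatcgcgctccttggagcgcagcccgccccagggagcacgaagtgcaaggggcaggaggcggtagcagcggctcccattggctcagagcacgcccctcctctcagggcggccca
Pdk4: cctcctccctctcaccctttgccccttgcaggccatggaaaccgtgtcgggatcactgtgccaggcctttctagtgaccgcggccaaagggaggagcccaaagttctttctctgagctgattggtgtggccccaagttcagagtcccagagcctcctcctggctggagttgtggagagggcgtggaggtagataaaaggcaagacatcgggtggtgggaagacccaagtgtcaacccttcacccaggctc
Fgf21: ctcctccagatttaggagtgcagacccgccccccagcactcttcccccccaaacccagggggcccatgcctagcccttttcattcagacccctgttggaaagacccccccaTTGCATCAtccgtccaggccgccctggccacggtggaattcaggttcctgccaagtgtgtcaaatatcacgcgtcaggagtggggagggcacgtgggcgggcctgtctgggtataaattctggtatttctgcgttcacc

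The probe of Ehhadh lay at base 2394 (chr16:21761914-21761973, minus strand, mm9). Ehhadh read 14.11, 14.08, 14.51 and 14.77 in WT controls and 14.34, 13.98 and 14.41 in Lcn2-/- controls. With CCl4 it was 15.44, 15.70, 14.99, 15.80 and 15.41 in WT and 15.82, 15.42, 15.26 and 15.13 in Lcn2-/- mice. Every treated array lay above every control of its genotype. The rise was 1.10 ± 0.20 (SE) in WT (adjusted p = 0.00156) and 1.17 ± 0.23 in Lcn2-/- mice (adjusted p = 0.00371). On slide 1, WT CCl4 replicate 1 was 1.07 above the mean of the WT controls. With slide as a fixed block the values were that same 1.07 in WT (adjusted p = 0.093) and 1.13 in Lcn2-/- mice (adjusted p = 0.201), and neither passed. The Lcn2-/- value rests on a slide difference taken from the WT CCl4 arrays. The genotypes differed by -0.12 in controls (-0.61 to 0.36) and by -0.06 under CCl4 (-0.48 to 0.37).

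Pdk4 phosphorylates and inactivates pyruvate dehydrogenase, so that pyruvate is spared when fat is burned. Its probe lay at base 3303 (chr6:5433441-5433500, minus strand, mm9). Pdk4 read 9.07, 9.45, 9.43 and 9.43 in WT controls and 8.27, 8.30 and 8.24 in Lcn2-/- controls. With CCl4 it was 10.63, 11.02, 10.36, 10.05 and 9.61 in WT and 10.46, 10.01, 9.64 and 9.56 in Lcn2-/- mice. Treated and control arrays did not overlap in either genotype, and the Lcn2-/- controls lay below all WT controls. The rise was 0.99 ± 0.25 (SE) in WT (adjusted p = 0.013) and 1.65 ± 0.28 in Lcn2-/- mice (adjusted p = 0.00163). Without WT control replicate 1 the WT rise was 0.90 (adjusted p = 0.051).

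On slide 1 alone, WT CCl4 replicate 1 was 1.29 above the WT control mean for Pdk4. With slide as a fixed block the rise was that same 1.29 in WT (adjusted p = 0.0936) and 2.02 in Lcn2-/- mice (adjusted p = 0.0601). The Lcn2-/- value rests on a slide difference taken from the WT CCl4 arrays. In controls Pdk4 was 1.07 lower in Lcn2-/- than in WT mice, which is 2.11-fold, with an unadjusted p of 0.00175 and an adjusted p = 0.136. It passed when arrays were weighted by their quality (-0.99, adjusted p = 0.0157), a setting under which 1270 genes passed in place of 129. Under CCl4 the groups overlapped, with a difference of -0.42 (-0.94 to 0.11, adjusted p = 0.474).

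Acot1 encodes a cytosolic thioesterase that splits long-chain acyl-CoA into fatty acid and CoA. Its gene sits among near copies (Acot2, Acot3, Acot4, Acot5), and binding of their transcripts to its probe (chr12:85358561-85358620, plus strand, mm9) was not analysed here. Acot1 read 12.82, 12.30, 12.72 and 13.71 in WT controls and 11.43, 11.93 and 11.41 in Lcn2-/- controls. With CCl4 it was 13.18, 12.62, 11.95, 12.11 and 12.02 in WT and 12.86, 11.36, 12.47 and 12.33 in Lcn2-/- mice. The control genotypes did not overlap, and the treated ones did. In controls Acot1 was 1.30 lower in Lcn2-/- mice (unadjusted p = 0.00481, adjusted p = 0.223), and it passed only with array weights (-1.35, adjusted p = 0.0179). The CCl4 response was -0.51 in WT (-1.24 to 0.22) and 0.66 in Lcn2-/- mice (-0.17 to 1.50).

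Fgf21 encodes a hormone of the fibroblast growth factor family that the liver secretes in fasting, on ketogenic diets and in cell stress. Its probe lay at base 842 (chr7:52869305-52869364, minus strand, mm9). Fgf21 read 11.65, 11.88, 10.16 and 10.69 in WT controls and 8.49, 8.34 and 5.997 in Lcn2-/- controls. With CCl4 it was 10.74, 10.78, 12.31, 10.97 and 10.60 in WT and 9.94, 8.53, 9.04 and 8.94 in Lcn2-/- mice. The highest Lcn2-/- array lay below the lowest WT array within each treatment, and in order of group means Lcn2-/- controls were lowest, then Lcn2-/- CCl4, with the WT groups above and within their spread of each other.

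The difference between control genotypes was -3.49 ± 0.61 (SE), an 11.2-fold lower level in Lcn2-/- mice (adjusted p = 0.0153). Lcn2-/- control replicate 3 was the lowest of all 16 arrays, and without it the difference was -2.69 (adjusted p = 0.0442). Without WT control replicate 1 it was -3.31 (adjusted p = 0.055), and without WT control replicate 2 it was -3.23 (adjusted p = 0.0506). Controls with the same replicate number shared a column of the slide and deviated together. With the replicate number as a block over all 16 arrays the difference was -3.58 (adjusted p = 0.0634). That block also tied treated arrays by number, which was not taken to pair them. All controls were on slide 1, with the genotypes in different rows of it.

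Under CCl4 Fgf21 was 1.97 lower in Lcn2-/- than in WT mice (-3.11 to -0.82, unadjusted p = 0.00248, adjusted p = 0.134). That difference did not pass, and it passed without replicate 3 of both control groups (-1.97, adjusted p = 0.0353), a setting that leaves out no treated sample. The CCl4 response of Fgf21 was -0.02 in WT (-1.17 to 1.13) and 1.50 in Lcn2-/- mice (0.20 to 2.81, adjusted p = 0.127). Groups did not overlap for 3 members between the control genotypes (Pdk4, Fgf21, Acot1, all lower in Lcn2-/- mice, where 9.64% of all genes did not overlap and 5.42% did so as lower), for Fgf21 alone under CCl4 (5.66%), for Ehhadh and Pdk4 in the WT response (17.4%), and for Cpt1a, Ehhadh, Pdk4 and Fgf21 in the Lcn2-/- response (24.8%).

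Whether the genotypes responded differently to CCl4 was tested as an interaction. No member passed by limma (adjusted p = 0.9999 for each), 2 of 8 had an unadjusted p under 0.05 (Hadha, with an interaction of 0.42, and Acot1, with 1.17), against 3.33% of all genes, and 0.0534% of all genes passed. The interaction was above 0 for all 8 members, with a median of 0.37 against 0.02 over all genes, of which 46% lay below 0. That of Ppara (0.10) and that of Ehhadh (0.07) each kept their sign in 25 of 30 alternatives, and those of the other 6 members in all 30. For Fgf21 it was 1.52 (-0.21 to 3.26) and for Pdk4 0.66 (-0.14 to 1.45). The Lcn2-/- controls enter both the response and the comparison of controls.

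**Figure D3:**
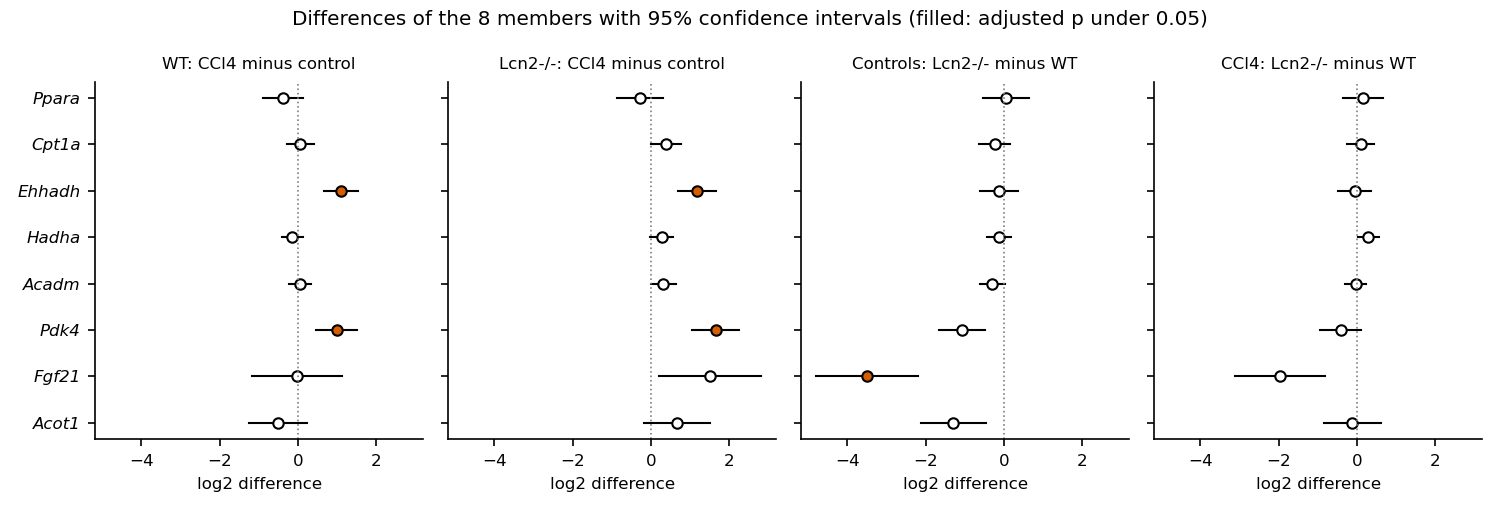
Log2 difference (dot) with its 95% confidence interval (line) for each member in 4 comparisons, from limma. Filled dots have an adjusted p under 0.05: Ehhadh and Pdk4 in both CCl4 responses and Fgf21 between the control genotypes.

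The rest of the pathway was described from 11 lists that hold 154 further genes, of which 151 were tested. In the WT response 30 of the 151 passed, 21 higher and 9 lower (19.9% of them, against 16.8% of all genes). In the Lcn2-/- response 25 passed, 21 higher and 4 lower (16.6% against 12.2%). With slide as a fixed block 12 and 5 of them passed (7.95% and 3.31%, against 5.35% and 1.74% of all genes). The counts below include members that belong to a list.

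Among 18 receptors, partner receptors and coregulators, 1 was higher and 2 were lower in WT, and 1 was lower in Lcn2-/- mice. Med1, a Mediator subunit that serves as a coactivator of PPARs, fell by 1.89 in WT (adjusted p = 0.000235) and by 1.54 in Lcn2-/- mice (adjusted p = 0.00397). Rxrg, a partner receptor, fell by 0.46 and Esrra, an orphan receptor that drives mitochondrial genes, rose by 0.38, both in WT. Among 16 genes of fatty acid uptake, binding and activation, 4 were higher and 2 lower in WT and 2 were higher and 2 lower in Lcn2-/- mice. Cd36, a fatty acid transporter, rose by 1.37 and 1.76 in the 2 genotypes. Fabp4, a binding protein of adipocytes and macrophages, rose by 0.97 and 1.24. Acsl6, an acyl-CoA synthetase, passed in both with lower levels under CCl4. It was well above background on all 7 controls but on only 2 of 5 and 2 of 4 treated arrays, so its measured differences of -3.58 and -2.22 rest partly on signal near background.

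In mitochondria few listed genes passed. Of 8 carnitine shuttle genes, Cpt1c, the brain form of Cpt1a, was the only one to pass. It was well above background on all 9 treated arrays. In Lcn2-/- mice, where it was so on none of 3 controls, it rose by at least 1.57-fold. In WT it was so on 1 of 4 controls, and the measured difference of 2.13 is taken against a group mostly near background. The difference lay above 0 for 6 of the 8 genes in WT and for all 8 in Lcn2-/- mice, with medians of 0.10 and 0.44 against -0.03 and -0.02 over all genes. Of 18 mitochondrial beta-oxidation genes, Acadm and Hadha included, none passed in WT, and only Eci1, the enoyl-CoA isomerase for unsaturated fats, rose in Lcn2-/- mice (0.52, adjusted p = 0.0189). At an unadjusted p under 0.05 there were 2 of 18 in WT and 9 of 18 in Lcn2-/- mice, against 30.7% and 27% of all genes. The medians of this list were 0.17 and 0.29, with 15 and 16 of 18 genes above 0. Of 18 peroxisomal genes 3 rose in each genotype. Abcd2, a peroxisomal transporter of very long chains, rose by 2.11 and 2.28, and Acaa1b, the thiolase that follows Ehhadh, by 0.90 and 1.07.

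Cyp4a14, an omega-hydroxylase and a well known PPAR-alpha target, showed the largest rise of the listed genes in both genotypes. It ranged from 6.46 to 8.45 in WT controls and from 11.04 to 12.77 with CCl4, and from 6.21 to 6.66 and from 11.13 to 12.84 in Lcn2-/- mice. The rise was 4.30 ± 0.49 in WT (adjusted p = 4.96e-05) and 5.43 ± 0.56 in Lcn2-/- mice (adjusted p = 3.94e-05). In the same list of 11 tested genes, 4 fell in WT, with Cyp4a12a at -2.07 and Cyp4a12b at -1.96, near copies whose transcripts may share probes. No gene of this list fell past the threshold in Lcn2-/- mice. Whether the genotypes differed there was tested by the interaction in limma, in which no gene of the list passed. Of the 11 genes 2 had an unadjusted p under 0.05, against 3.33% of all genes. The interaction lay above 0 for all 11, with a median of 0.73 against 0.02 over all genes.

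Of 9 ketone body genes, 1 rose and 1 fell in WT. Oxct1, the enzyme that burns ketone bodies and that hepatocytes lack, rose by 1.57 in WT and 1.28 in Lcn2-/- mice. Slc16a1, a carrier of lactate and ketone bodies, fell in both (-0.46 and -0.57). The dehydrogenase Bdh1 was at 0.27 and 0.30 and Bdh2 at 0.11 and 0.30. The thiolase Acat1 was at -0.04 and 0.18, and the carriers Slc16a6 and Slc16a7 were at 0.04 and -0.28 and at -0.28 and 0.02. None of these 5 genes passed.

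Of 12 acyl-CoA thioesterases, Acot9, a mitochondrial form, rose by 1.01 in both genotypes, and Acot4, a peroxisomal form and a near copy of Acot1, rose by 0.79 in Lcn2-/- mice. Of 12 genes around pyruvate dehydrogenase, 5 rose in WT and 3 in Lcn2-/- mice. Beside Pdk4 these included the kinase Pdk3 (1.42 in WT, well above background on 2 of 4 controls), the phosphatase Pdp1 that acts against the kinases (0.93 in WT), the kinase Pdk2 (0.54 in Lcn2-/- mice) and the subunit Dld (0.42 in Lcn2-/- mice). Of 9 tested genes of the FGF21 axis, the receptor Fgfr1 rose by 0.94 and 0.99, and Fap, a protease that cleaves FGF21 and also marks activated fibroblasts, rose by 0.69 in WT. The co-receptor Klb was at -0.25 and -0.17 and did not pass.

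Of 28 other tested targets, 4 rose in WT and 7 in Lcn2-/- mice, and none fell. Lpl, the lipase that frees fatty acids from lipoproteins, rose by 2.57 and 2.70. In WT mice Scd1, which makes monounsaturated fats, rose by 1.50 and Me1, which supplies NADPH for fat synthesis, by 1.06. In Lcn2-/- mice Vnn1, a pantetheinase, rose by 1.92 and Txnip, a glucose-responsive regulator, by 0.99.

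**Figure D4:**
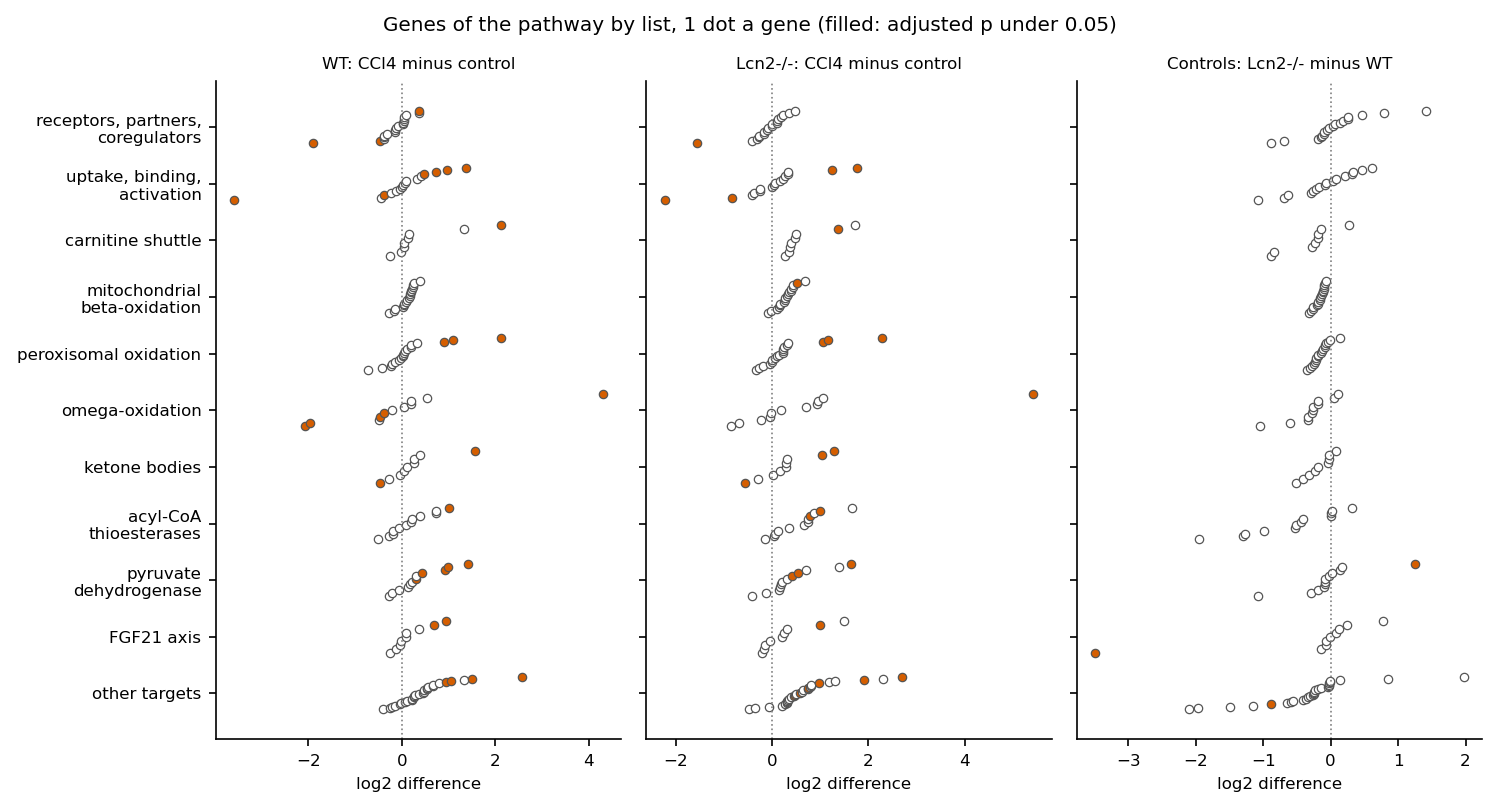
Log2 difference of each tested gene of 11 lists (rows, 1 dot a gene) in the 2 CCl4 responses and between the control genotypes. Filled dots have an adjusted p under 0.05. The horizontal axes differ between panels. The gene farthest to the right in both responses is Cyp4a14 (4.30 and 5.43), and the one farthest to the left between controls is Fgf21 (-3.49).

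Between the control genotypes 2 of the 151 listed genes passed (1.32% against 0.530% of all genes). Pdk1, another kinase of pyruvate dehydrogenase, was 1.25 higher in Lcn2-/- mice (adjusted p = 0.00275, and 0.0302 with the replicate number as a block), opposite in direction to the value of Pdk4. Plin2, the coat protein of lipid droplets, was 0.89 lower, with means of 16.29 and 17.18 (adjusted p = 0.0311). With that block its difference was -0.85 and its call is lost (adjusted p = 0.124), as it is without any 1 of WT control replicates 1, 2 and 4 or of the 3 Lcn2-/- controls (adjusted p from 0.0603 to 0.116). The difference lay below 0 for 116 of the 151 genes, where 52% of all genes lay below 0. By list it did so for 18 of 18 mitochondrial beta-oxidation genes (median -0.15), 17 of 18 peroxisomal genes (-0.16), 8 of 9 ketone body genes (-0.19) and 25 of 28 other targets (-0.25). It did so for 7 of 8 carnitine shuttle genes (-0.22), 9 of 11 omega-oxidation genes (-0.26), 8 of 12 thioesterases (-0.48) and 8 of 12 pyruvate dehydrogenase genes (-0.08), and for 9 of 18 receptors and coregulators (0.00), 9 of 16 uptake genes (-0.07) and 5 of 9 genes of the FGF21 axis (-0.01). The counts by list include the members. Beside Fgf21, Plin2 and Pdk1 none of these genes passed, and the 3 control replicates of Lcn2-/- mice are shared by all of them. Under CCl4 the medians of the mitochondrial, peroxisomal, ketone body and other target lists were -0.01, -0.06, -0.10 and -0.14, and Pdk1 was 1.20 higher, Pdk2 0.54 higher and the binding protein Fabp2 0.72 lower in Lcn2-/- mice, the only 3 of 151 to pass. With the replicate number as a block the difference of Fabp2 was -0.73 and its call is lost (adjusted p = 0.0625), although that number was not taken to pair the treated arrays. The call of Fabp2 is also lost without Lcn2-/- CCl4 replicate 1 or 3 (0.052 and 0.055). That of Pdk2 is lost without WT CCl4 replicate 2 or Lcn2-/- CCl4 replicate 1 (0.0527 and 0.0612).

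Fgf21 and Pdk4 are known to follow feeding and the clock, and the feeding state and hour of killing are not given in the sources used here. Of 22 fasting and feeding genes none passed between the control genotypes, with 2 at an unadjusted p under 0.05, a threshold that 8.3% of all genes met in controls and 13.7% under CCl4. Under CCl4 6 of the 22 met it, and Irs2, an insulin receptor substrate that rises in fasting, was the only one to pass under CCl4 (1.04 higher in Lcn2-/- mice, adjusted p = 0.0343). Of 17 tested clock genes none passed between the genotypes, with 7 in controls and 4 under CCl4 at an unadjusted p under 0.05. The 7 are named here after their values were seen. In Lcn2-/- controls the activators Arntl and Clock were 1.81 and 0.54 lower than in WT controls (adjusted p = 0.0678 and 0.449). Ciart, Per1, Per3 and Per2, which repress the activators, and the output factor Tef were 2.21, 1.25, 1.20, 0.92 and 0.54 higher (adjusted p from 0.185 to 0.432). In the WT response 9 fasting and feeding genes passed, 8 of them higher, among them Fasn, the fatty acid synthase (2.43), and in the Lcn2-/- response 4 passed, all higher. The part of feeding or time of day in the differences of the members was not tested.

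Cell type markers moved with CCl4 as well. Of 13 tested hepatocyte markers none passed in any comparison by limma, and their mean level lay between 17.82 and 18.04 on every array. Of 12 stellate cell and myofibroblast markers 10 rose in WT and 8 in Lcn2-/- mice, with the mean level at 10.71 to 11.67 in WT and 10.51 to 10.73 in Lcn2-/- controls and at 12.10 to 13.05 on treated arrays. Of 12 macrophage markers 4 rose and 2 fell in WT and 4 rose in Lcn2-/- mice, and of 10 neutrophil markers 6 rose in WT and 1 in Lcn2-/- mice. Between the control genotypes 1 macrophage marker, Gpnmb, was lower in Lcn2-/- mice (at least 4.09-fold, since it was well above background on none of the 3 Lcn2-/- controls, adjusted p = 0.0132), with macrophage mean levels of 10.50 to 12.88 in WT and 9.97 to 11.57 in Lcn2-/- controls, and no stellate, neutrophil or hepatocyte marker passed. The stellate markers still lay lower in Lcn2-/- controls for 11 of 12, with a median of -0.43 and 3 at an unadjusted p under 0.05, and under CCl4 also for 11 of 12, with a median of -0.50 and 4 at that threshold. Under CCl4 macrophage markers lay lower in Lcn2-/- mice for 9 of 12 (median -0.65, 2 at that threshold). The others lay higher, with means of 14.21 against 13.56 in WT for Clec4f, 15.32 against 14.86 for Cd5l and 9.65 against 9.24 for Timd4. Neutrophil markers lay lower for 8 of 10 (median -0.81, 0 at that threshold), where 50% of all genes lay below 0. No marker of these 3 lists passed between the genotypes under CCl4. Of 8 adipocyte markers 4 were tested, Fabp4 among them, and Adipoq, Plin1, Lep and Ucp1 were well above background on at most 1 array. All 4 tested ones lay lower in Lcn2-/- than in WT controls, with a median of -0.77 and 2 at an unadjusted p under 0.05, and none passed. Of these 4, Cfd and Retn were well above background on at most 6 and 5 arrays. Of 9 tested lymphocyte markers 3 fell in WT and 1 in Lcn2-/- mice, of 9 endothelial markers 1 rose and 1 fell in WT and 1 rose in Lcn2-/- mice, and of 7 tested cholangiocyte markers 1 rose in each. Of 12 markers of muscle, pancreas and red cells 4 were tested, and 1 fell in WT. The part of these cells in the differences of the members was not tested.

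In the 250 bases before the start of the 8 members, 4 motifs were searched on both strands. The direct repeat with 1 spacer base to which PPAR-alpha and its partner bind, written AGGTCANAGGTCA, matched none of the 8 and 0.0335% of 32851 promoters of the same length, and the looser AGGNCANAGGNCA matched none of the 8 and 0.338%. A single repeat, AGGTCA, which lies within the longer motif, matched Acadm and Cpt1a and 14% of all promoters. TTGCATCA, the composite motif of C/EBP and ATF factors of the amino acid response, matched Fgf21 alone, from 139 to 132 bases before its start on the gene's own strand, and 0.791% of all promoters. A match is a run of letters and not a measured binding site, and sites outside these windows were not searched.

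After the group means were taken out, the 8 members did not vary as a block. Over the 28 pairs, Pearson's r across the 16 arrays ran from -0.42 to 0.76 with a median of 0.21. Acadm and Fgf21 were the closest pair (r = 0.76) and Ehhadh and Fgf21 the most opposed (r = -0.42). Ehhadh and Pdk4, which rose together with CCl4, had r = 0.37 within groups. Of all 24357 genes the closest to each member, each picked as the highest of so many, had r from 0.87 to 0.98. They were a probe for a noncoding RNA on chromosome 2 and 4930551O13Rik for Ppara, Gm4386 and Ubxn1 for Cpt1a, Ugt1a10 and Copz2 for Ehhadh, Vps25 and Otof for Hadha, Map1lc3a and 1010001N08Rik for Acadm, a transcript with no symbol on chromosome 14 and Chst15 for Pdk4, a noncoding RNA on chromosome 14 and a transcript with no symbol on chromosome 6 for Fgf21, and Cnfn and Acsm4 for Acot1. These are descriptions over arrays that share slides and sample quality.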

How the data were processed

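Total liver RNA was labelled with Cy3 and hybridized by the authors to SurePrint G3 mouse arrays. Per the file headers, the deposited intensity values are processed signals from Feature Extraction 10.7.3.1, on a linear scale and background-corrected, with probe positions on mm9. The deposited table of the series holds the authors' log2 values, with the normalization method (quantile) taken from the methods. The members and gene lists were chosen with earlier results of these data known.

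Processed signals of the 59305 gene spots of each array were taken as log2, quantile normalized over 16 arrays, outlier-marked spots left out and spots of a probe averaged. A probe was kept if 3 or more arrays read it well above background (33014 of 55681). Symbols came from RefSeq accessions (GRCm38.p6), which matched 61% of tested genes, or from the file. The highest-mean probe per symbol gave 24357 genes. Groups were compared with limma 3.58.1 in R 4.3.3 (a model of 4 group means, 5 contrasts, empirical Bayes, Benjamini-Hochberg adjustment over all genes within a contrast, threshold 0.05), tested on simulated data. The number of arrays limits the precision. Promoters came from RefSeq, and all 8 members matched.

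Genes named were all members, up to 3 genes with the largest difference among those passing in each list and comparison, the ketone body genes, Lcn2, and the 2 genes most like each member. Klb, Fasn, Irs2, Gpnmb, Clec4f, Cd5l and Timd4, and the near copies of Acot1, were named after their values were seen. Some genes under this rule are not reported here. Same-numbered controls correlated in their deviations from the group means at r = 0.233, 0.368 and 0.552, so the numbers were taken to pair the controls. In the CCl4 groups r was 0.012, 0.252, 0.0262 and -0.221, so they were not. Same-numbered treated arrays lay in different columns, so these values do not test pairing by column. WT CCl4 replicate 5 and Lcn2-/- CCl4 replicate 4, which shared a column of slide 2, correlated at r = 0.64. Pairing of the treated arrays by column was not tested. Alternatives were other scalings, background corrections, filters, probe rules, blocks, weights and samples left out.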

Additional observations from a re-analysis of the deposited data

Results flagged for a closer look

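In the 24 groups of 4 or 5 arrays formed by the members, chance alone sets apart about 1 in 20, and 3 arrays stood apart by the gap to their nearest neighbour over the range of the group. Cpt1a was 15.71 on WT CCl4 replicate 1, below the other 4 arrays of its group, and this is the only treated array on slide 1. Pdk4 was 9.07 on WT control replicate 1, below the other 3. Fgf21 was 12.31 on WT CCl4 replicate 3, above the other 4. The cause was not tested for any of them.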

How the results depend on the processing

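Each comparison was repeated under 30 alternatives, 1 choice at a time. Ehhadh kept its rise in both genotypes and its call under all 30 but slide as a fixed block, and no called difference changed sign. With slide as a fixed block 0 members passed in either CCl4 response, and 12 (WT) and 5 (Lcn2-/-) of the 151 listed genes did. With array weights 3 members passed between the control genotypes, and the listed genes that passed were 47, 49, 7 and 17 in the WT response, the Lcn2-/- response, between the genotypes under CCl4 and between the controls (31.1%, 32.5%, 4.64% and 11.3%, against 29%, 28.6%, 1.33% and 5.21% of all genes). With the replicate number as a block 0 members and 1 listed gene, Pdk1, passed between the controls, and no other call of a member changed. Scaling to the 75th percentile left 1 listed gene in each genotype comparison, and normexp background correction and empirical Bayes with trend and robust settings each gave 5 under CCl4. Scaling to the 75th percentile also moved the share of higher genes among those called from 47.7% to 30.7% in the WT response and from 53.9% to 36.3% in the Lcn2-/- response. Leaving out 1 replicate at a time, members passing ranged from 1 to 2 in the WT response and from 0 to 1 between the controls, and listed genes from 16 to 33, 13 to 28, 2 to 5 and 1 to 3 in the 4 comparisons in the order above. Without replicate 3 of both control groups, a setting chosen after seeing the data, 1 member passed under CCl4, namely Fgf21 (-1.97, adjusted p = 0.0353), and 36 listed genes passed in the WT response. The block on slide leaves the Lcn2-/- response with no array of its own on a shared slide. The causes of the other shifts were not tested.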
